A study of Mus musculus with 4 samples.

Results

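Endothelial identity genes were examined in subcutaneous white adipose tissue of FtMT-Adip mice and wild-type (WT) mice. They were 10 genes, which the table names in capitals, CLDN5, SOX18, SOX17, CDH5, PECAM1, TIE1, EMCN, RGS5 and VWF, with ESAM as the remaining symbol, and which are written here as mouse genes are (Cldn5). A probe counted as theirs when its name in the non-normalized table equalled the symbol. This matched 12 of the 45281 probes on the array, which stand for 9 of the 10 symbols. Esam was not matched under that name, but a probe is listed there as Esam1, a RefSeq synonym of the same gene, and its values are given apart. FtMT-Adip mice carried a transgene for mitochondrial ferritin that is restricted to fat, by a promoter that the sources used here do not give. The controls were labelled wild-type. Both groups were C57BL/6 mice aged 8 to 12 weeks, and both received a high-fat diet containing doxycycline for 3 weeks. Each group had 2 arrays, and whether an array held RNA of an individual mouse or of a pool is not stated, so p-values measure the spread between these arrays and that spread may be technical.

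Endothelial cells line blood and lymph vessels, and in fat they pass fatty acids, oxygen and hormones between blood and adipocytes. Their identity rests on transcription factors of the ETS and SOX families, on junction proteins that seal neighbouring cells together, and on surface receptors that keep the vessel quiescent. Most of the 10 genes are used as general markers of this cell type. Rgs5 differs from the others, as it is best known as a marker of pericytes, the contractile cells wrapped around capillaries. Pecam1 is also made by platelets and by several kinds of white blood cell, and Vwf by megakaryocytes.

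Total signal per array was 14143400 and 14820100 intensity units in FtMT-Adip, against 15086000 and 14375300 in WT, and 43.5% to 45.1% of the probes on an array exceeded a background set by probes for olfactory and vomeronasal receptors. Mouse Ftmt (ILMN_2705758) read 104.9 and 106.8 in FtMT-Adip and 102.1 and 110.6 in WT, below background on all 4 arrays, and it is not known whether this probe can detect the transgene, so it does not check the labels. All 12 matched probes were above background on all 4 arrays and were tested. All 13 adipocyte markers were tested, which needed a signal above background on 2 arrays or more. Precision is limited by the number of arrays.

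Endothelial identity transcripts were lower in FtMT-Adip fat. Of the 12 probes, 8 passed limma with Benjamini-Hochberg adjustment at 0.05, all of them lower, against a background of 4.16% of the 20797 tested probes called lower and 3.28% called higher. The 8 probes stood for Cdh5, Cldn5, Pecam1, Sox17, Sox18, Tie1 and Rgs5. The median log2 change over the 12 probes was -0.79, ranging from -1.35 to -0.26, whereas the median over all tested probes was 0.00. For each of the 12 probes both FtMT-Adip arrays lay below both WT arrays, an arrangement that 25.9% of all tested probes also had. In whole tissue, a smaller share of RNA from endothelial cells and less of these transcripts per endothelial cell cannot be told apart. The count of lower probes was 4 without FtMT-Adip 1, 4 without WT 1 and 5 without WT 2, and it was 3 in the table that the authors normalized.

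**Figure D1:**
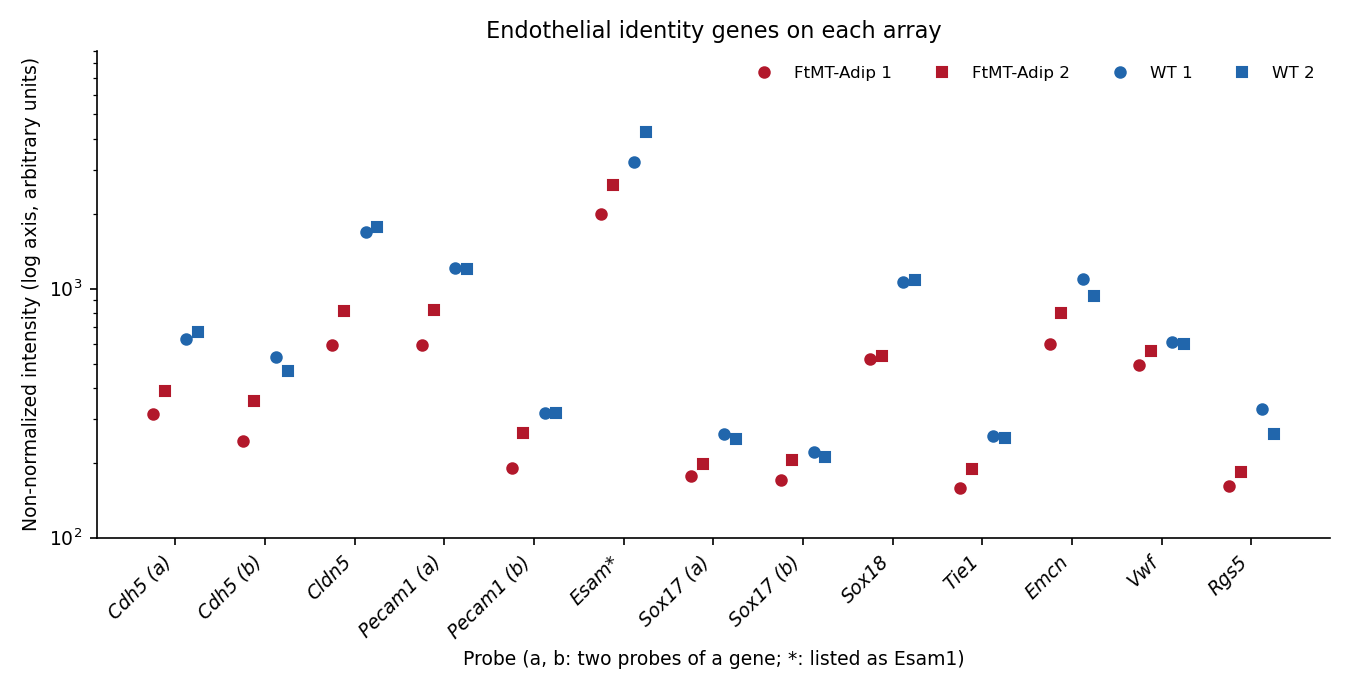
Non-normalized intensity (log axis, arbitrary units) of each endothelial identity probe on the 4 arrays, with FtMT-Adip arrays in red to the left of WT arrays in blue. Where a gene has a pair of probes, (a) and (b) are ILMN_2771550 and ILMN_2866951 for Cdh5, ILMN_2700982 and ILMN_3147074 for Pecam1, and ILMN_2747986 and ILMN_2784446 for Sox17. For every probe the 2 red points lie below the 2 blue points, with the narrowest gap between groups for the second Sox17 probe, at 205.9 and 210 units.

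Among the junction and adhesion genes, Cldn5, which encodes the main claudin of endothelial tight junctions, fell the most. Its probe (ILMN_1241293) gave 594.3 and 811.1 in FtMT-Adip and 1679.5 and 1758.7 in WT. The higher FtMT-Adip array was below the lower WT array by more than the distance between replicates of either group. On the normalized log2 scale Cldn5 averaged 9.32 ± 0.27 in FtMT-Adip and 10.68 ± 0.13 in WT (SD, n = 2 each), a 2.56-fold difference (log2 change -1.35, SE 0.178, limma adjusted p = 0.00337). It remained called in each of the 12 alternative analyses.

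Cdh5 encodes VE-cadherin, the adhesion molecule of endothelial adherens junctions. Its brighter probe (ILMN_2771550) gave 315.1 and 388 in FtMT-Adip and 627 and 667.5 in WT, a 2.03-fold difference (log2 change -1.02, SE 0.163, limma adjusted p = 0.00751). The other probe (ILMN_2866951) gave 244 and 352.6 in FtMT-Adip and 531.1 and 467.7 in WT (log2 change -0.92, SE 0.193, adjusted p = 0.0227 by limma). Both probes were thus lower, and the FtMT-Adip arrays were further apart from each other on the second than on the first. The brighter probe was called under all 12 alternatives, whereas the dimmer lost its call without FtMT-Adip 1 and without WT 1 (-1.18 to -0.66 over the left-out arrays).

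Pecam1, or CD31, is an adhesion molecule at contacts between endothelial cells. Its brighter probe (ILMN_2700982) gave 595.3 and 816.6 in FtMT-Adip and 1212.2 and 1200.2 in WT (log2 change -0.83, SE 0.176, limma adjusted p = 0.0237). A dimmer probe (ILMN_3147074) gave 191.2 and 263.8 in FtMT-Adip and 317.7 and 317.7 in WT and did not pass (log2 change -0.65, 95% interval -1.08 to -0.23, limma adjusted p = 0.0727). The call of the brighter probe was lost without FtMT-Adip 1, without WT 1, without WT 2 and in the authors' normalized values (log2 changes of -1.03 to -0.63 over the left-out arrays). Esam encodes another immunoglobulin-like adhesion molecule of endothelial tight junctions and of platelets. The probe listed as Esam1 (ILMN_2690839) gave 1995 and 2611.9 in FtMT-Adip and 3227.2 and 4262.6 in WT. Its groups did not overlap, but it did not pass (log2 change -0.63, 95% interval -1.07 to -0.18, limma adjusted p = 0.0992), except without WT 1 (-0.89) and with scaling to the 75th percentile (-0.74).

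Sox17 and Sox18 belong to the SoxF subgroup of SOX transcription factors, which acts in arterial, venous and lymphatic development. Sox18 (ILMN_2645321) gave 519.5 and 536.4 in FtMT-Adip and 1062 and 1077.3 in WT. The replicates of each group were close together and the groups far apart. Sox18 averaged 8.89 ± 0.05 in FtMT-Adip and 9.98 ± 0.09 in WT on the log2 scale (SD, n = 2 each), a 2.12-fold difference (log2 change -1.09, SE 0.152, limma adjusted p = 0.00427). It stayed called whichever array was left out (-1.15 to -1.02), but not in the authors' normalized values.

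The Sox17 probes differed in their calls. The brighter, ILMN_2747986, gave 177.4 and 196.8 in FtMT-Adip and 261.5 and 248 in WT, and passed (log2 change -0.60, SE 0.140, limma adjusted p = 0.0350). The other, ILMN_2784446, gave 171.2 and 205.9 in FtMT-Adip and 221.5 and 210 in WT, and did not pass (log2 change -0.30, 95% interval -0.63 to 0.04, limma adjusted p = 0.300). The call of the brighter probe ended when any 1 of the 4 arrays was left out, with the replicate block and in the authors' normalized values (limma adjusted p = 0.0600 to 0.519 over these settings). In those values the second probe turned positive (0.22).

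Tie1 is an orphan receptor tyrosine kinase that modulates angiopoietin signalling through its relative Tek. Its probe (ILMN_2928560) gave 158.4 and 189.5 in FtMT-Adip and 256.9 and 250.7 in WT, a 1.67-fold difference (log2 change -0.74, SE 0.151, limma adjusted p = 0.0202). The WT arrays were nearly equal, and both exceeded the FtMT-Adip arrays. The call was lost without FtMT-Adip 1, without WT 1, without WT 2 and in the authors' normalized values, where the change was -0.34 (-0.88 to -0.61 over the left-out arrays).

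Of the surface and secreted proteins, neither passed. Emcn encodes endomucin, a mucin of capillary and venous endothelium. It gave 597.4 and 798.8 in FtMT-Adip and 1091.5 and 932.1 in WT (ILMN_1259365, log2 change -0.58, 95% interval -0.97 to -0.19, limma adjusted p = 0.0852). It passed only without FtMT-Adip 2 (-0.75, limma adjusted p = 0.0473). Vwf encodes von Willebrand factor, the clotting protein stored in Weibel-Palade bodies, and gave 495.4 and 560.7 in FtMT-Adip and 608.3 and 597.2 in WT. This was the smallest difference among the 10 genes (ILMN_2519673, log2 change -0.26, 95% interval -0.60 to 0.08, limma adjusted p = 0.375). In the authors' normalized values the Vwf change was -1.12, with 31.8 and 13.3 in FtMT-Adip and 36.9 and 54.2 in WT, so its size depends on the table used.

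Rgs5 encodes a regulator of G protein signalling that is abundant in pericytes. Its probe (ILMN_2979824) gave 161.6 and 183.6 in FtMT-Adip and 328.8 and 259.7 in WT. The WT arrays differed from each other more than the FtMT-Adip arrays did, and the groups did not overlap. The difference was 1.99-fold (log2 change -0.99, SE 0.164, limma adjusted p = 0.00867), and it was called whichever array was left out. It was not called in the authors' normalized values (log2 change -1.08, limma adjusted p = 0.0673).

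**Figure D2:**
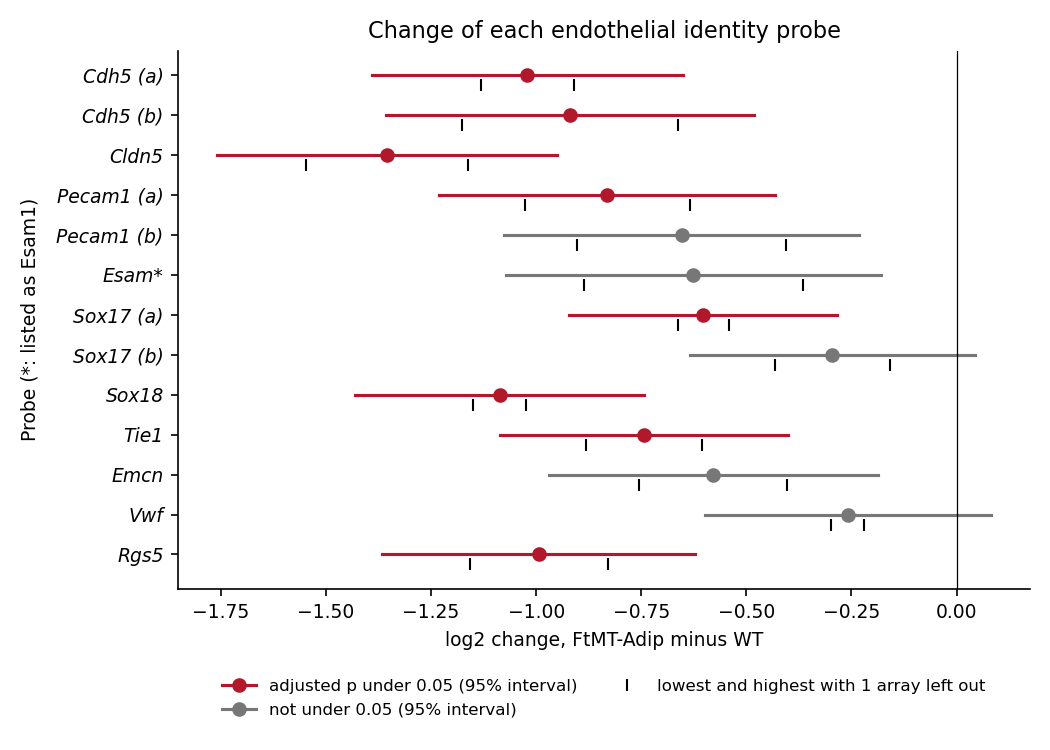
Log2 change of each endothelial identity probe, FtMT-Adip minus WT, with its 95% interval from limma; red marks an adjusted p under 0.05, and black ticks give the lowest and highest change with 1 array left out. Estimates run from -1.35 for Cldn5 to -0.26 for Vwf, and the intervals of Vwf and of the dimmer Sox17 probe include 0.

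In the authors' deposited table, which lists per probe a p-value and the mean of FtMT-Adip divided by that of WT, 11 of the 12 ratios were under 1. The deposited p was under 0.05 for 2 of the 12, against 3.08% of all probes in that table with a ratio under 1 and such a p. They were Cldn5 (deposited ratio 0.433, deposited p = 0.0151 in the authors' deposited table) and the brighter Cdh5 probe (0.483, deposited p = 0.0185 in the authors' deposited table). The ratio above 1 was that of the second Sox17 probe, at 1.17 in the authors' deposited table.

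Promoter sequence could be given for 4 of the 10 genes, the only ones in the reference used, so they were not chosen by their changes. They are Cldn5 (log2 change -1.35), Rgs5 (-0.99), Tie1 (-0.74) and Emcn (-0.58), which did not pass. The sequences are the 250 bases before the annotated start in RefSeq, build GRCm38.p6, 5′ to 3′ on the gene's strand: Cldn5 at chr16:18776597-18776846 (plus strand), Rgs5 at chr1:169655251-169655500 (plus), Tie1 at chr4:118489850-118490099 (minus) and Emcn at chr3:137340828-137341077 (plus). Capitals mark GGAA, the core of ETS factor sites, and ACAAT, a core found in SOX factor sites, each on either strand.
Cldn5: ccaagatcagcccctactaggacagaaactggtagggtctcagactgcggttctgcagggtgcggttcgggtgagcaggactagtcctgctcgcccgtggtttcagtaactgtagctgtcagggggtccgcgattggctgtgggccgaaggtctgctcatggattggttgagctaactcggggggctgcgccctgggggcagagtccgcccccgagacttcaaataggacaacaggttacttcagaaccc
Rgs5: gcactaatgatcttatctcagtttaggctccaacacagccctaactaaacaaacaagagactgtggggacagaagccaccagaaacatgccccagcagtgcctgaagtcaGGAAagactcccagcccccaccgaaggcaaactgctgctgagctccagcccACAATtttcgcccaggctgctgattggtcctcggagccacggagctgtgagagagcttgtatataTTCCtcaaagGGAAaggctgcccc
Tie1: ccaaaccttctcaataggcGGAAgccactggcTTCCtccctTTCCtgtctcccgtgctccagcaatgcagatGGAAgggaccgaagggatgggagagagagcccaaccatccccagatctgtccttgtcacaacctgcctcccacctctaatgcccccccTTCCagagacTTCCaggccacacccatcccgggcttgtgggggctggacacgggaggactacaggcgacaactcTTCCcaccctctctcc
Emcn: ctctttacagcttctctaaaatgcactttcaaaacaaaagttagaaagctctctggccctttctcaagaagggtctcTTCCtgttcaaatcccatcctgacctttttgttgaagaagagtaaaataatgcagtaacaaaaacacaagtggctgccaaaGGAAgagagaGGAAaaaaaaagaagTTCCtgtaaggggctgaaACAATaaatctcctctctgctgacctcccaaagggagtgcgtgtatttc
GGAA occurred 7 times in the Tie1 window, 4 times in that of Emcn, 3 times in that of Rgs5 and 0 times in that of Cldn5. It was present in 93.4% of the 32851 promoter windows of this length in the table, with a median of 3 matches. ACAAT occurred 1 time each for Rgs5 and Emcn and 0 times for Cldn5 and Tie1, and in 27.7% of all windows. None of the matches in these 4 windows overlapped another. A match is a run of letters and not a measured binding site.

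The 9 matched genes, each by its brightest probe, were averaged into a profile over the arrays. Centred on each gene's mean, their average stood at -0.52 in FtMT-Adip 1 and -0.31 in FtMT-Adip 2, against 0.40 in WT 1 and 0.43 in WT 2 on the log2 scale. FtMT-Adip 1 was the lowest array for 8 of the 9 genes, the exception being Sox18. WT 2 was the highest array for 6 and WT 1 for 3. How often all tested genes had these orders was not counted. Over all tested probes, FtMT-Adip 1 had correlations of 0.959 with WT 1 and 0.962 with WT 2. Those of FtMT-Adip 2 were 0.973 and 0.974, so FtMT-Adip 1 was further from WT in general. Vwf and Cldn5 departed most from the average, with root mean square differences of 0.29 and 0.27, Vwf being flatter and Cldn5 steeper, and Tie1 followed it most closely (0.05). Over the same 4 arrays, the genes outside the 10 whose profiles lay nearest were Ctnnbip1 (root mean square difference 0.021), which encodes an inhibitor of beta-catenin binding, Pelo (0.023), a ribosome rescue factor gene, Trp53i11 (0.024), Rtl8a (0.026) and Smim10l1 (0.029). With 4 arrays many genes can match such a profile closely, and the likeness is a description.

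Other genes of endothelial cells were counted by their brightest tested probe. Of 22 tested pan-endothelial genes besides the 10, 6 were lower and 0 higher, with a median log2 change of -0.50, beside 4.30% of the 14591 tested genes called lower, 3.56% called higher and a median of 0.01 over all of them. Nos3, the endothelial nitric oxide synthase gene, gave 295.2 and 405.6 in FtMT-Adip and 1036.2 and 801.9 in WT (log2 change -1.55, SE 0.188, limma adjusted p = 0.00247). All 3 of its tested probes were called. Rasip1, which acts in vessel lumen formation, was also lower (-1.10, limma adjusted p = 0.00533), as were the adrenomedullin receptor component gene Ramp2 (-0.89) and Esm1, an endothelial proteoglycan gene (-0.68). The Ramp2 call was lost without FtMT-Adip 1 and without WT 2, and the Esm1 call without FtMT-Adip 1, without WT 1 and in the authors' normalized values. Ptprb and Egfl7, not called by their brightest probe, each had another probe called lower. The receptor genes Flt1 and Kdr (vascular growth factors), Tek (angiopoietins) and Eng did not pass, unlike Tie1 among the 10. Flt1 stood at -0.43 (limma adjusted p = 0.186), Tek at -0.28 (adjusted p = 0.399 in the same limma fit), Eng, a co-receptor gene, at -0.21 (adjusted p = 0.504 by limma) and Kdr at -0.02 (adjusted p = 0.925 by limma). The Kdr probe read 126.9 to 130.9 units on the 4 arrays, close to background. The count of lower genes was 2 without FtMT-Adip 1, 3 without WT 2 and 10 without FtMT-Adip 2, and 4 in the authors' normalized values.

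Endothelial transcription factor genes split. Of 21 tested, 5 were lower and 0 higher, with a median of -0.05. Sox7, the remaining SoxF gene, gave 284.2 and 380.1 in FtMT-Adip and 710.3 and 664.9 in WT (log2 change -1.22, SE 0.172, limma adjusted p = 0.00438), with 2 of its 3 tested probes called. All of the SoxF genes on the array therefore had a called probe. Tcf15 and Meox2, which drive the fatty acid uptake programme of capillary endothelium, were lower by -1.28 (SE 0.160) and -0.95 (SE 0.166) on the log2 scale, with Meox2 not called without FtMT-Adip 1 or without WT 1. Ets2, a broadly expressed ETS factor gene, stood at -0.78 and lost its call without FtMT-Adip 1, without WT 1, without WT 2 and in the authors' normalized values. The ETS factor gene Fli1 stood at 0.08 (limma adjusted p = 0.790), and Erg was not above background on enough arrays to be tested. Without FtMT-Adip 1 the lower genes numbered 2, without WT 1 they numbered 3, and in the authors' normalized values 3.

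Capillary and lipid-handling genes had 8 of 15 lower and 0 higher (median -0.48). Tcf15, already counted with the transcription factor genes, is among the 8. Gpihbp1, which carries lipoprotein lipase to the capillary lumen, gave 809.3 and 1250.3 in FtMT-Adip and 2257.3 and 1845.2 in WT (log2 change -1.01, SE 0.201, limma adjusted p = 0.0185, both tested probes called), and lost its call without FtMT-Adip 1 and without WT 1. Aqp1, a water channel gene of capillaries and of red blood cells, was lower by all 3 probes, the brightest at -1.07 (SE 0.137), but was not called in the authors' normalized values. Timp4, a metalloproteinase inhibitor gene, stood at -1.48 (SE 0.276) and was not called without WT 1. Several genes of this list are also made by adipocytes, among them Aqp7 (-0.92) and Fabp4. The Fabp4 probe, counted among the 8, read 113.4 and 119.6 units in FtMT-Adip, below background, and 146.8 and 138.5 in WT. It was above background on 2 arrays only, for a gene abundant in fat. With only probes above background on all 4 arrays, 7 genes of this list were lower. The lower genes numbered 3 without FtMT-Adip 1, 3 without WT 1, 5 without WT 2 and 4 in the authors' normalized values.

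By vessel type, 2 of 12 arterial genes were lower and 0 higher (median -0.35). They were Notch4, a Notch receptor gene of endothelium (-1.08, SE 0.169, limma adjusted p = 0.00682, 1 of 2 probes called), and Gja5, the gap junction gene of arteries (-0.71, 2 of 3 probes called, call lost without FtMT-Adip 1, without WT 1, without WT 2 and in the authors' normalized values, each of which left 1 called arterial gene). Of 9 venous and activation genes, which include Vwf, 0 were called by limma and 2 had an unadjusted p under 0.05 (median -0.02). Those 2 were the apelin receptor gene Aplnr (-0.67, limma adjusted p = 0.122) and the venular chemokine receptor gene Ackr1 (0.54, limma adjusted p = 0.150). Without FtMT-Adip 2, 1 venous gene was called higher, and without WT 1, 1 was called lower. Of 7 tested lymphatic genes 0 were called by limma and 0 had an unadjusted p under 0.05 (median 0.09). Lyve1 stood at 0.22 and Pdpn at 0.31, and Prox1 was not above background on enough arrays to be tested. Differences between these lists were not tested.

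Genes that work beside the 10 showed few calls. Of 11 junction partners 0 were called by limma, with 3 at an unadjusted p under 0.05 and a median of -0.19. Tjp1, which anchors tight junctions, stood at -0.49 (limma adjusted p = 0.0706) and the junctional adhesion molecule gene F11r at -0.54 (limma adjusted p = 0.0837), and 2 junction genes were called lower without FtMT-Adip 2. These counts rest on the brightest probe, and Magi1 (1 of 4 probes) and Afdn (1 of 3 probes) each had a dimmer probe called lower. Of 13 Weibel-Palade and haemostasis genes 1 was higher, Cd63 (0.96, SE 0.160), a membrane protein gene of Weibel-Palade bodies and of lysosomes in many cells, and 0 were lower (median -0.02), the Cd63 call being lost in the authors' normalized values. In the claudin family 3 of 10 tested genes were lower, Cldn5, Cldn15 (-0.85, 1 of 3 probes called) and Cldn22 (-0.67, 1 of 2 probes called). The Cldn15 call was lost in the authors' normalized values and the Cldn22 call without FtMT-Adip 1. With only probes above background on all 4 arrays, 2 claudin genes were lower, and Cldn22 was not among them. In the RGS family 2 of 11 were lower, Rgs5 and Rgs7 (-0.84), and 2 higher, Rgs1 (1.71) and Rgs10 (0.75), both known from immune cells. In the SOX family 4 of 13 were lower, Sox7, Sox18, Sox17 and Sox5 (-0.70), and 1 higher, Sox9 (1.06, call lost without FtMT-Adip 1, without WT 1 and without WT 2). The calls of Rgs7, Rgs10 and Sox5 were lost without FtMT-Adip 1 and without WT 1, and that of Sox5 also without FtMT-Adip 2. In the authors' normalized values 0 genes of the RGS family were lower and 1 higher, and 1 of the SOX family was lower and 1 higher.

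**Figure D3:**
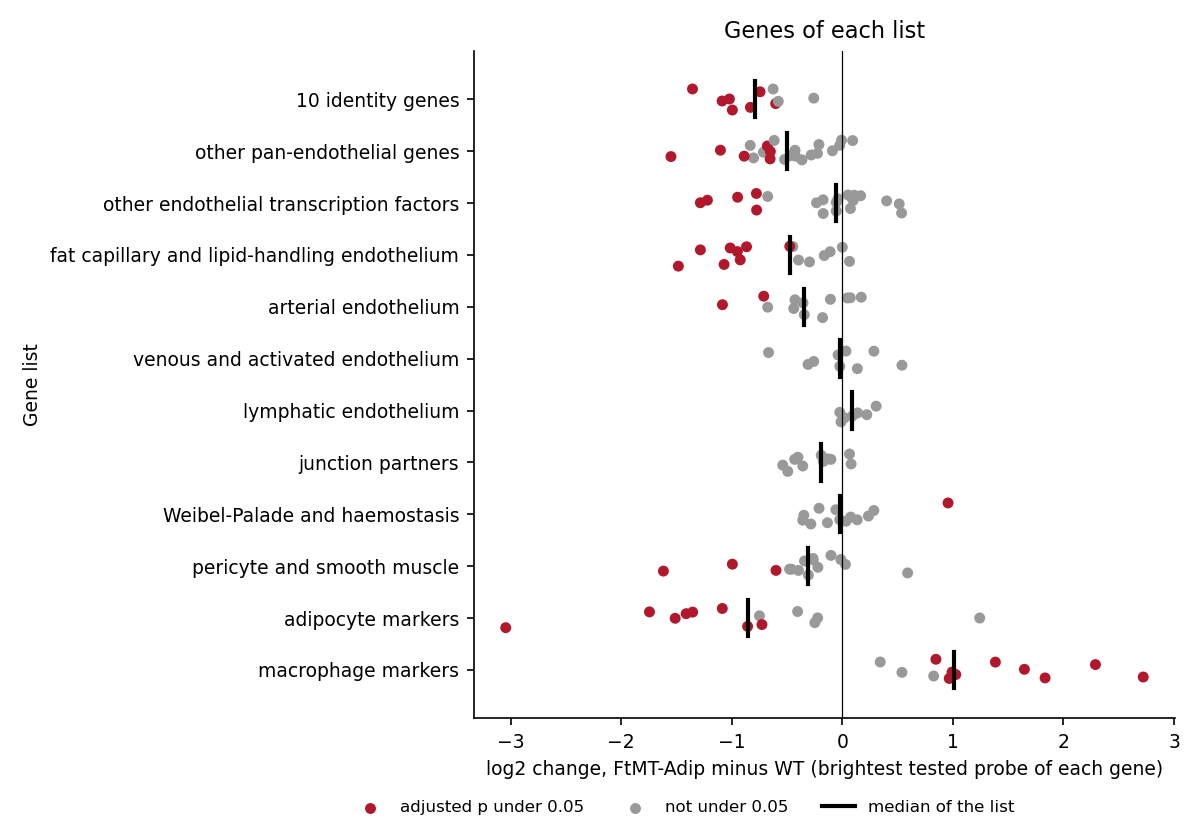
Log2 change, FtMT-Adip minus WT, of each tested gene by its brightest probe, in the 10 identity genes and the other lists; red points have a limma adjusted p under 0.05 and black bars mark list medians. The median is -0.79 for the 10 identity genes, -0.50 for other pan-endothelial genes, 0.09 for lymphatic genes, -0.86 for adipocyte markers and 1.01 for macrophage markers.

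Mural cells, the pericytes and smooth muscle of the vessel wall, were examined beside Rgs5. Of 15 tested mural genes 3 were lower and 0 higher (median -0.31), namely Mcam (-1.62, SE 0.188, limma adjusted p = 0.00205), Rgs5 and the pericyte gene Higd1b (-0.60), whose call was lost without FtMT-Adip 1 and without WT 1. In the authors' normalized values 1 mural gene was lower. Mcam, or CD146, is an adhesion molecule gene of both mural and endothelial cells, and all 3 of its probes were called. Pdgfrb, Kcnj8, Abcc9 and Notch3, which are also used to mark pericytes, did not pass. The growth factor receptor gene Pdgfrb gave 230.7 and 257.8 in FtMT-Adip and 259.2 and 326.2 in WT (log2 change -0.34, limma adjusted p = 0.332). The potassium channel subunit genes Kcnj8 and Abcc9 stood at -0.22 and -0.48 (limma adjusted p = 0.475 and 0.0871), and Notch3 at -0.31 (limma adjusted p = 0.299). Summed over the mural list without Rgs5, signal was 86.3% and 77.7% of the WT mean in FtMT-Adip, against 106% and 93.9% in WT, but the smooth muscle actin gene Acta2 made up 74.9% and 70.2% of that sum in FtMT-Adip and 68.2% and 59.9% in WT. Without Acta2, which was left out after the sums were seen, the mural sum, in which Mcam remains, was 60.6% and 64.8% in FtMT-Adip, against 94.6% and 105% in WT.

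Markers of other cells moved on the same arrays. Summed signal of the 10 identity genes was 52.7% and 62.7% of the WT mean in FtMT-Adip 1 and 2, against 92.0% and 108% in WT 1 and 2. Without Esam, the brightest of them, it was 49.7% and 58.8% in FtMT-Adip, against 97.5% and 103% in WT. For 13 adipocyte markers it was 35.3% and 49.9% in FtMT-Adip, against 107% and 93.0% in WT. Of these markers 8 were lower and 0 higher, among the lower Adipoq (log2 change -1.35) and Retn (-0.73), which was above background on 2 arrays. Cidea went the other way (1.24) and was not called. For 12 macrophage markers summed signal was 299% and 234% in FtMT-Adip, against 93.3% and 107% in WT. Of these 9 were higher and 0 lower, among the higher Cd68 (1.83). For 4 red blood cell markers the sum was 59.6% and 48.4% in FtMT-Adip, against 94.97% and 105% in WT. Of these 3 were lower, among them Hba-a1 (-1.06), and 1 was lower in the authors' normalized values. For 6 skeletal muscle markers the sum was 760% in FtMT-Adip 1 and 174% in FtMT-Adip 2, against 86.3% and 114% in WT. Acta1 (1.76) and Atp2a1 (2.79) were called higher. Of these muscle markers 6 were called without FtMT-Adip 2, 0 without WT 1 and 0 without WT 2. The part of these cells in the endothelial result was not tested.

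The remaining marker lists had fewer calls. For 5 platelet markers, cells that also make Pecam1, Vwf and Esam, summed signal was 177% and 134% of the WT mean in FtMT-Adip and 100.2% and 99.8% in WT, and without Pf4, the brightest, 125% and 112% in FtMT-Adip and 102% and 97.5% in WT. Pf4 (0.75), a chemokine gene that macrophages also make, was called higher, but not without FtMT-Adip 1, WT 1 or WT 2 nor in the authors' normalized values. The other tested platelet genes did not pass, with Treml1 at 0.55 (limma adjusted p = 0.0519), Itga2b at 0.48 (limma adjusted p = 0.0854), Gp9 at -0.09 and Ppbp at -0.10. Of the 4 platelet markers not tested, Gp1ba, Gp1bb and Gp6 were below background on all arrays and Itgb3 was above it on 1. The pan-leukocyte gene Ptprc stood at 0.25 and 0.26 by its 2 tested probes and did not pass. Fibroblast markers had 2 of 10 higher, Ly6a (0.88) and Lum (0.71), and 1 lower, Dpt (-0.98), with 0 higher without FtMT-Adip 1. Of 9 lymphocyte markers 0 were called by limma, with 1 at an unadjusted p under 0.05, Cd4 (0.32), beside Cd79a (0.34). Schwann cell markers had 1 of 4 higher (Ncmap, 0.45), a call lost whichever array was left out. Of 10 epithelial markers 3 were tested and 1 was lower, Trf (-1.18), which adipocytes and other cells also make. The keratin gene Krt8 stood at 0.89 (limma adjusted p = 0.245) and was called higher without FtMT-Adip 2, and the cadherin gene Cdh1 stood at 0.26 (limma adjusted p = 0.492). The other 7 epithelial markers were above background on 1 array at most.

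**Figure D4:**
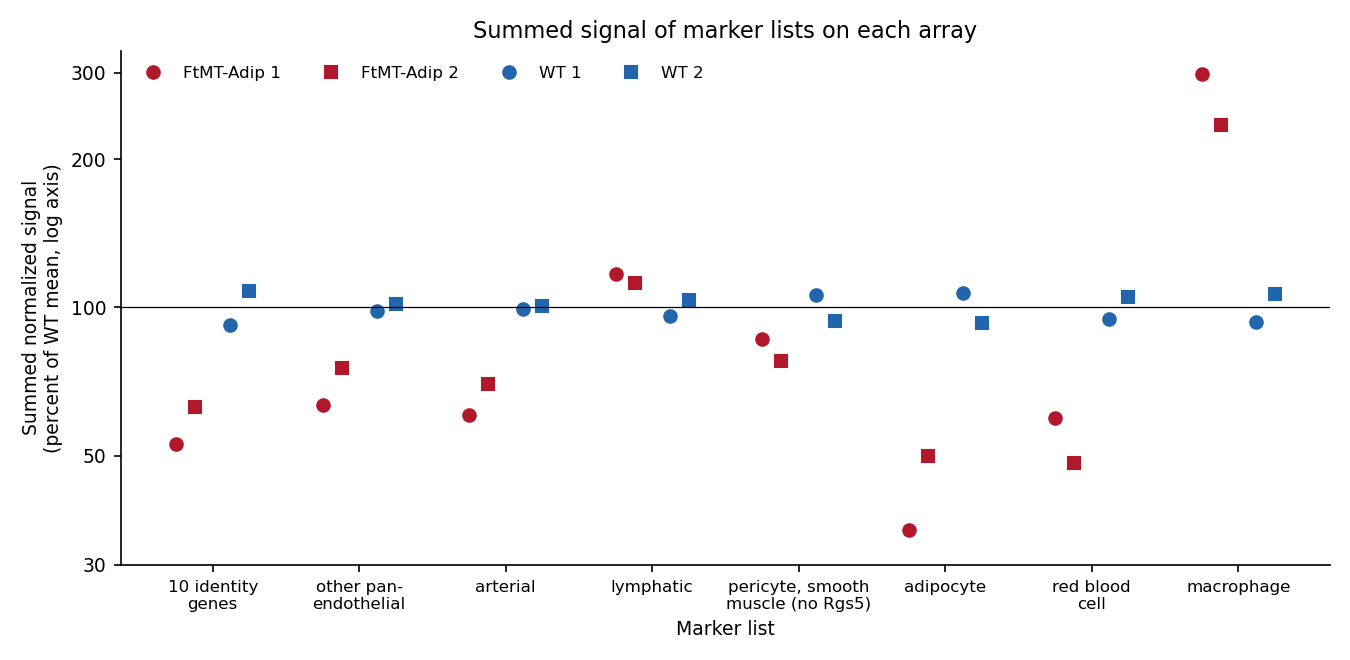
Summed normalized signal of marker lists on each array, as a percentage of the mean of the WT arrays (log axis), with FtMT-Adip in red left of WT in blue. The 10 identity genes stand at 52.7% and 62.7% in FtMT-Adip, adipocyte markers at 35.3% and 49.9%, and macrophage markers at 299% and 234%.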

How the data were processed

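Biotin-labelled RNA of 4 samples was hybridised to bead arrays, per the labels' protocols, which name the MouseRef-8 v2 BeadChip, whereas the table holds 45281 probes. The authors deposited non-normalized intensity per probe, and a second table with normalized intensity (by a method that the sources used here do not name), a ratio and a p-value per probe, per the file headers. The series' value table of intensity was not used. From the non-normalized intensity, limma 3.58.1 in R 4.3.3 applied normexp background correction (offset 50), quantile normalization and log2. A probe was tested when under 5% of 1479 olfactory and vomeronasal receptor probes reached its brightness, on 2 or more of the 4 arrays. No detection p-value was used, and 20797 probes passed. FtMT-Adip was set against WT in lmFit, followed by eBayes (mean-variance trend). Tests were two-sided, p-values were adjusted by Benjamini-Hochberg across every tested probe, with a threshold of 0.05, and the code was tested on simulated data. Probe names were matched to RefSeq symbols (GRCm38.p6), 22864 by symbol and 11915 by a synonym, and a gene is represented by its brightest tested probe. Members, gene lists and tests were chosen with earlier results of these data known. The genes named are the 10 members, 13 fixed comparison genes and the 5 of most similar profile. From most lists they include up to 4 called genes with the largest change, or otherwise the 2 of smallest p. Fewer are named of the called adipocyte, macrophage and red blood cell markers, and larger changes, such as Cfd (-3.04) and Gpnmb (2.72), were left out. Retn, Cidea and Prox1 were named outside this rule. Fli1, Erg, Aqp7, Fabp4, Ptprb, Egfl7, Magi1, Afdn, Acta2, Krt8, Cdh1 and the platelet genes other than Pf4 were named after their values were seen, as were the sums without a brightest gene. Alternatives were other background corrections, scaling, filters and variance treatment, the authors' normalized table, a replicate block and leaving out each array. Scan dates and slides are not given in the sources used here, so batches were not examined.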

Additional observations from a re-analysis of the deposited data

How the results depend on the processing

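With another background correction, offset, scaling to the 75th percentile, filter or variance treatment, 8 of the 12 endothelial identity probes were called lower, as in the main analysis, and with replicate numbers as a block 7 were. The replicate block gave 700 lower and 525 higher of all tested probes, against 866 and 682 without it. The 8 endothelial lists were the pan-endothelial, transcription factor, capillary, arterial, venous, lymphatic, junction partner and Weibel-Palade genes. Together they held 104 tested genes, each counted once and without the identity genes. Of the 104, 20 were lower in the main analysis, beside 4.30% of all tested genes, and 19 with the replicate block. With only probes above background on all 4 arrays, 19 were lower. The 20 include Aqp7 and Fabp4, which adipocytes also make, and Fabp4 was above background on 2 arrays only. Deviations of same-numbered arrays had a correlation of -0.08 over probes, and the numbers are not stated to mark shared animals. In the authors' normalized table, 372 probes were lower and 323 higher, 3 identity probes were lower, 11 genes of the endothelial lists were lower and 0 higher (1 in the main analysis), and the Sox17 probe ILMN_2784446 reversed to 0.22. The cause was not tested. Leaving out 1 array gave 339 to 850 lower and 313 to 777 higher probes, 4 to 9 lower identity probes with a median log2 change of -0.96 to -0.62, and 7 to 27 lower and 1 to 2 higher genes of the endothelial lists. A left-out array leaves its group with 1 array, assumed to vary like the other group. Signals of Sox17, Tie1 and Rgs5 were within a few fold of the receptor background, which limits their changes.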
